A study of Sus scrofa with 6 samples.

Results

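The genes of retinoid synthesis, transport and reception were followed across birth in the lungs of female Tibetan-Meishan hybrid piglets, which had a Tibetan sire and a Meishan dam. They were chosen by name: the retinaldehyde dehydrogenases ALDH1A1, ALDH1A2 and ALDH1A3, the retinol carrier RBP4 and its receptor STRA6, and the nuclear receptors RARA, RARB, RARG and RXRA. Of these 9 genes, 7 were found among the 14579 mRNAs of the deposited table, while STRA6 and RXRA could not be matched to a row and were not analysed here. The fetal group held the lungs of 3 piglets from 3 sows on the last day before birth, labelled prenatal by the submitters, and the neonatal group those of 3 piglets from 3 other sows at 2 days after birth. The labels name no treatment or transgene for either group. Each library came from 1 piglet, so the replicates were separate animals, and since no sow gave piglets to both groups, birth, age and litter cannot be told apart. The paper names caesarean and parturition without stating which group had which, so the mode of delivery may also differ with the group. A piece of whole lung was sequenced after removal of ribosomal RNA, so a level reflects all cell types of the piece, and fewer cells of a type cannot be told apart from less RNA per cell.

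Vitamin A travels in blood as retinol bound to RBP4 and enters cells through receptors such as STRA6. Inside the cell it is oxidised to retinaldehyde by retinol dehydrogenases and then to retinoic acid by the ALDH1A enzymes. Retinoic acid acts through the RARs, which bind DNA as partners of the RXRs, and it is broken down by the CYP26 enzymes. In the lung this pathway is known for its part in early bud formation and in the building of alveoli.

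Values are FPKM (fragments scaled to transcript length and to the mapped reads of the sample), which are per length and so allow genes to be set beside each other. The summed FPKM of the table ran from 339491 to 471220 in the fetal samples and from 491548 to 777982 in the neonatal samples, so the samples were not on an equal total. The median FPKM differed less, at 4.99 to 5.42 in the fetal samples and 5.56 to 6.11 in the neonatal samples. The paper lists the mapped reads of each library. The files give no read counts per gene, so the reads behind a single value are unknown. The lung markers SFTPC and AGER were high in every sample, at 3171 FPKM or more and 396 FPKM or more. Groups were compared in limma after taking log2(FPKM + 1), with p-values adjusted by Benjamini-Hochberg across the 14579 mRNAs and an adjusted p of 0.05 or less as the threshold. Such differences understate the change of genes with low FPKM. The median difference of all mRNAs was 0.13 on this scale.

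None of the 7 genes passed the threshold in limma, against 6.87% of all mRNAs. An unadjusted p under 0.05 was reached by 1 of them, RARA, and by 24.2% of all mRNAs. In 2 of the 7 genes (28.6%), ALDH1A1 and RARA, the 3 neonatal values exceeded the 3 fetal ones. The groups did not overlap in 30.5% of all mRNAs, 20.9% higher and 9.64% lower after birth. The median difference of the 7 genes was 0.12, close to the 0.13 of all mRNAs, and 3 of them lay above that median and 4 below it. A missed threshold does not show equal levels, so the interval of each difference is given.

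The most abundant of the 7 genes was ALDH1A1, a cytosolic enzyme that oxidises retinaldehyde to retinoic acid and other aldehydes to their acids. Before birth it had 55.9 FPKM in Fetal1, 49.5 in Fetal2 and 36.0 in Fetal3, and after birth 67.7 FPKM in Neonatal1, 61.9 in Neonatal2 and 65.7 in Neonatal3. Values of the other genes are given in the same order of samples. All neonatal samples lay above all fetal samples, and Fetal3 was the lowest. The mean went from 47.1 ± 10.2 to 65.1 ± 2.96 FPKM (SD, n = 3 each). The difference on the log2 scale was 0.48 (95% interval from -0.02 to 0.98, limma adjusted p = 0.219). It was 0.30 without Fetal3, and with the samples scaled to an equal sum of FPKM it became -0.10.

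ALDH1A2 and ALDH1A3 make retinoic acid from retinaldehyde too. ALDH1A2 is the main such enzyme of the early embryo and ALDH1A3 is best known from epithelia. ALDH1A2 stood at 1.25, 1.51 and 1.07 FPKM in the fetal lungs, with 0.368, 1.91 and 2.00 FPKM after birth. Neonatal1 was below every fetal value and the other neonatal samples were above, so the groups overlapped, and the log2 difference was 0.01 (95% interval from -0.76 to 0.79, limma adjusted p = 0.983). ALDH1A3 was the lowest of the 7 genes on average in both groups, at 0.486, 0.507 and 0.777 FPKM before birth and 0.391, 0.924 and 0.906 FPKM after it. Here Neonatal1 was again the lowest of all samples and the other neonatal samples the highest. The log2 difference was 0.12 (95% interval from -0.40 to 0.64, limma adjusted p = 0.775). It was 0.27 without Neonatal1 and 0.20 without Fetal3, and it was 0.07, 0.04 and 0.05 without Fetal1, Neonatal2 and Neonatal3.

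**Figure D1:**
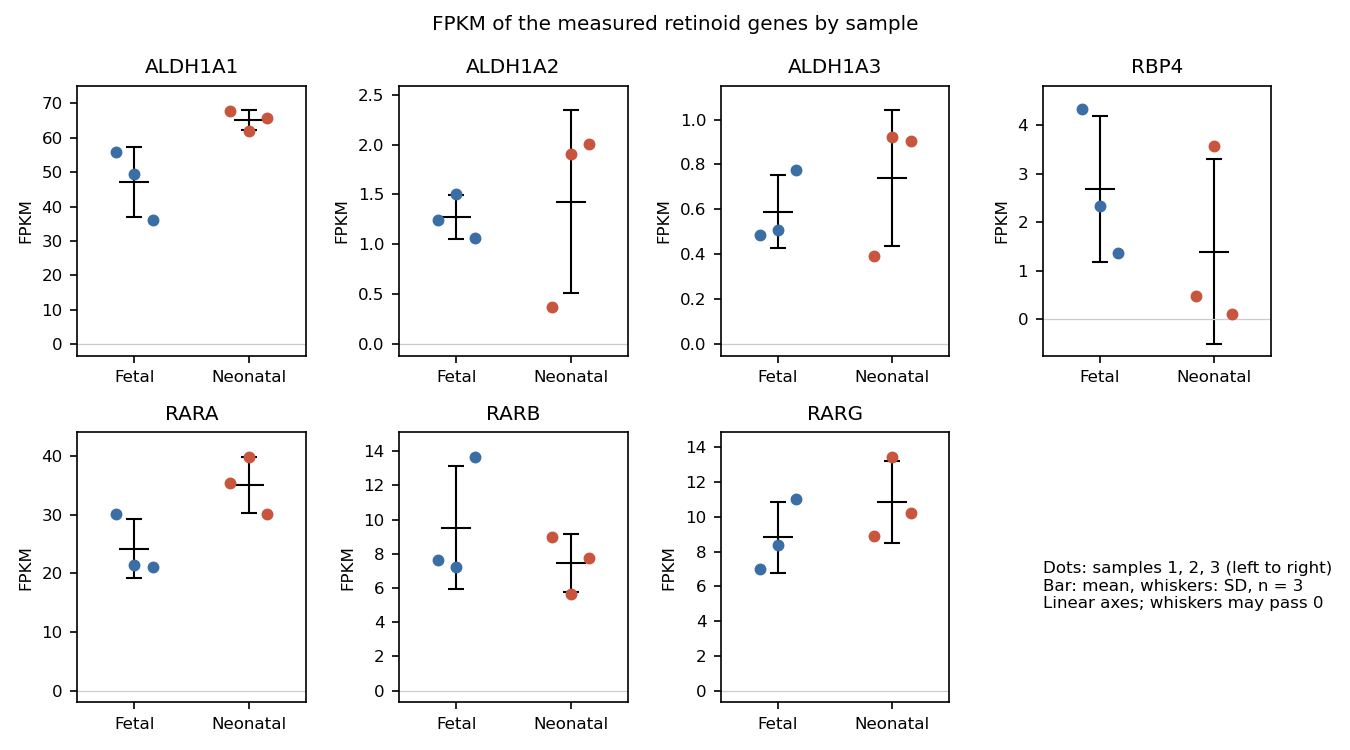
FPKM (vertical axes, linear) of the 7 measured genes in the 3 fetal and 3 neonatal samples, 1 dot per piglet in the order of the replicate numbers, with the mean as a bar and the SD as whiskers (n = 3). ALDH1A1 and RARA have all neonatal dots above all fetal dots, while the dots of ALDH1A2, ALDH1A3, RBP4, RARB and RARG overlap between the groups.

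Together, the ALDH1A genes summed to 57.7, 51.5 and 37.8 FPKM in the fetal samples and to 68.5, 64.7 and 68.6 FPKM in the neonatal samples, without overlap in the values as deposited. ALDH1A1 made up nearly all of this sum, with 96.1% ± 0.936 before birth and 96.8% ± 1.85 after it (SD, n = 3 each). A share within a sample does not move with the scaling of the sample. The share of ALDH1A2 was 2.64% ± 0.414 and 2.14% ± 1.38, and that of ALDH1A3 1.29% ± 0.661 and 1.11% ± 0.466 (SD, n = 3 each). In the 3 shares the group means differed by less than the larger SD. Neonatal1 had the smallest share of both minor enzymes, at 0.538% and 0.571%.

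RBP4, the protein that carries retinol in plasma and is made mostly by the liver, was low in lung and spread widely. It was measured at 4.34, 2.34 and 1.37 FPKM before birth, against 0.476, 3.58 and 0.109 FPKM in the neonatal lungs. Neonatal2 lay within the fetal range, and Neonatal1 and Neonatal3 lay below it. The log2 difference of -0.83 had the widest interval of the 7 genes, from -2.12 to 0.45 (limma adjusted p = 0.395). It was -1.45 without Neonatal2, -0.42 without Neonatal3 and -0.52 without Fetal1, and with a pseudocount of 0.1 in place of 1 it was -1.72. As the gene with the largest difference of the 7, RBP4 was compared with the 9881 mRNAs that carry a symbol. The distance was the root mean square over the 6 samples between log2(FPKM + 1) profiles centred on their means. The nearest were KCNK2, a potassium channel, at a distance of 0.21, and PHKG1, a subunit of phosphorylase kinase, at 0.28. KCNK2 stood at 3.35, 2.84 and 1.67 FPKM in the fetal lungs, with 0.157, 3.10 and 0 FPKM after birth. Its high value in Neonatal2 follows from the choice by distance over the same 6 samples. Its own difference was not past the threshold (limma adjusted p = 0.258), nor was that of PHKG1 (limma adjusted p = 0.151).

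Among the receptors, RARA was the most abundant in every sample. It encodes the alpha form of the retinoic acid receptor. RARA was measured at 30.1, 21.5 and 21.1 FPKM before birth, against 35.4, 39.8 and 30.2 FPKM in the neonatal lungs. The groups just failed to meet, since Fetal1 and Neonatal3 differed by less than the SD of either group. The mean went from 24.2 ± 5.09 to 35.1 ± 4.81 FPKM (SD, n = 3 each), a log2 difference of 0.53 (95% interval from 0.04 to 1.02, limma adjusted p = 0.180). Under median-of-ratios scaling it was 0.36, under quantile normalization 0.28, and with an equal sum of FPKM -0.04.

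RARB encodes the beta form, which is itself known as a gene induced by retinoic acid. It stood at 7.65, 7.25 and 13.7 FPKM in the fetal lungs, with 8.95, 5.63 and 7.77 FPKM after birth. Fetal3 was well above the 5 others, which overlapped between the groups. The log2 difference was -0.29 (95% interval from -0.94 to 0.37, limma adjusted p = 0.567), and it was -0.02 without Fetal3, -0.12 without Neonatal2 and -0.44 without Fetal2. RARG, the gamma form, was measured at 7.03, 8.38 and 11.0 FPKM before birth, against 8.89, 13.5 and 10.2 FPKM in the neonatal lungs. These values overlapped too, with a log2 difference of 0.27 (95% interval from -0.27 to 0.81, limma adjusted p = 0.503). The difference was 0.14 without Fetal1, 0.12 without Neonatal2 and 0.43 without Fetal3. Under median-of-ratios scaling it was 0.11 and under quantile normalization 0.10.

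The RARs summed to 44.8, 37.1 and 45.8 FPKM before birth and to 53.3, 58.9 and 48.2 FPKM after it, without overlap in the values as deposited. RARA held 67.2%, 57.9% and 46.1% of the sum in the fetal samples and 66.5%, 67.6% and 62.7% in the neonatal samples. The fetal samples thus spread widely, and Fetal1 was as high as the neonatal samples. RARB held 17.1%, 19.5% and 29.9% before birth and 16.8%, 9.56% and 16.1% after it. All its neonatal shares lay below its fetal ones, but Neonatal1 and Fetal1 were only a fraction of a point apart, and the fetal mean of 22.2% fell to 18.3% without Fetal3. RARG held 20.8% ± 4.48 and 20.3% ± 3.21 (SD, n = 3 each).

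The order of the levels was nearly the same in both groups. ALDH1A1 was first and RARA second, and the values of neither met those of the next gene in either group. ALDH1A1 stood above 93.3% of all mRNAs by fetal mean. RARB and RARG followed, with RARB higher on average in the fetal group and RARG in the neonatal group, and their values overlapped in both. RBP4, ALDH1A2 and ALDH1A3 came last. Before birth RBP4 and ALDH1A2 overlapped and ALDH1A3 lay below both, and after birth the values of the 3 genes overlapped.

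**Figure D2:**
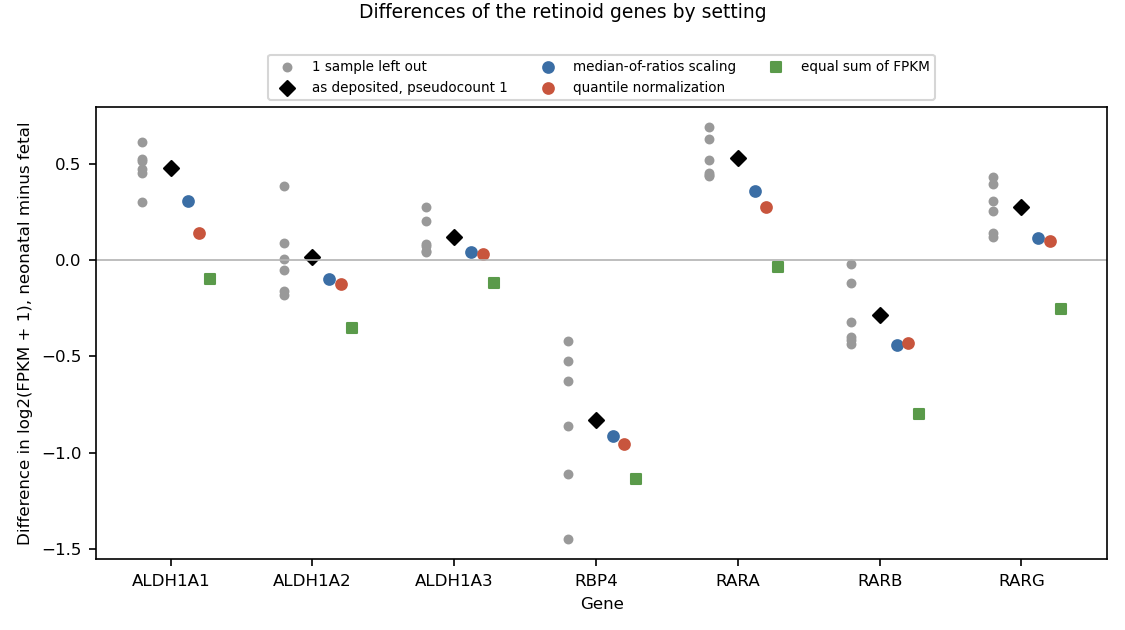
Difference in log2(FPKM + 1), neonatal minus fetal (vertical axis), for each of the 7 genes under the scaling of the deposited values (black diamonds), 3 other scalings (coloured) and with each of the 6 samples left out (grey). RBP4 and RARB lie below 0 throughout, and ALDH1A1, RARA, RARG and ALDH1A3 lie above 0 except with an equal sum of FPKM, where they are at -0.10, -0.04, -0.26 and -0.12.

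The other genes of the pathway were taken from lists of retinol dehydrogenases, binding and uptake proteins, breakdown enzymes, receptors with their coregulators, and genes known to respond to retinoic acid. Of the 79 symbols on these lists, which include a few older names of the same gene, 48 could be matched to a row of the table, in which 4698 rows carry no symbol. A name taken from the study, as for RDH16, could only come from its list of differentially expressed mRNAs in these same samples. The call of RDH16 in the counts below is therefore not independent of its being matched. Past the threshold in limma were 4 that rose and 1 that fell, together 10.4% of the 48, against 6.87% of all mRNAs in either direction. Of all mRNAs 5.41% rose and 1.45% fell past it. The median difference of the 48 genes was 0.24, and 15 of them (31.2%) did not overlap between the groups, against 30.5% of all mRNAs. With 1 sample left out, which leaves 2 in a group, the number of calls was 0 without Fetal1, Fetal2, Fetal3 or Neonatal2, 3 without Neonatal3 and 4 without Neonatal1. The calls over all mRNAs went from 1001 to 304, 196, 397, 255, 308 and 944 without Fetal1, Fetal2, Fetal3, Neonatal2, Neonatal3 and Neonatal1. The differences of the 5 genes kept their direction in each of these fits. Under median-of-ratios scaling the number of calls was 3. With the samples scaled to an equal sum of FPKM 1 gene, MDK, rose past the threshold and 3 fell. Those that fell were RDH16 and genes that were not called as deposited. The 4 genes that rose as deposited stayed positive, from 0.75 for SCARB1 to 1.07 for MDK. Of the calls over all mRNAs, 78.8% were higher after birth as deposited and 28.9% with an equal sum.

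SCARB1, a scavenger receptor that takes up lipids and carotenoids from lipoproteins, rose from 4.24, 2.77 and 2.89 FPKM to 11.1, 9.91 and 6.58 FPKM (log2 difference 1.24, limma adjusted p = 0.0302). Under median-of-ratios scaling its limma adjusted p was 0.0520 and with an equal sum of FPKM 0.193. It was 0.0669, 0.137, 0.101, 0.0703 and 0.114 without Fetal1, Fetal2, Fetal3, Neonatal1 and Neonatal2, while the difference stayed between 1.10 and 1.44 with any 1 sample left out. The other 7 genes of binding, uptake and storage in the table did not pass. Of these CRABP1, which binds retinoic acid in the cytoplasm, had the largest difference, at 0.80 (limma adjusted p = 0.171). It was measured at 31.4, 31.2 and 51.7 FPKM before birth, against 46.6, 64.8 and 91.5 FPKM in the neonatal lungs, and Neonatal1 lay within the fetal range.

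Of the retinol dehydrogenases and retinal reductases, 8 were in the table and 1 was past the threshold (12.5%, against 6.87% of all mRNAs). RDH16, a short-chain dehydrogenase that oxidises retinol and some steroids, fell from 4.88, 4.27 and 3.72 FPKM to 0.405, 0.301 and 1.38 FPKM. Every neonatal value was below every fetal value (log2 difference -1.69, SE 0.27, limma adjusted p = 0.0156), and without Fetal1, Fetal2, Fetal3 and Neonatal2 the adjusted p was 0.0722, 0.0863, 0.0520 and 0.0678. With any 1 sample left out the difference lay between -1.96 and -1.53. Its name came from the study's list of differentially expressed mRNAs in these same samples, and it belongs to a family of related genes. A row that the study did not call would not have gained a name this way. The 12.5% therefore includes a call that is tied to the naming. SDR16C5, another retinol dehydrogenase, was listed at 0.226, 1.18 and 0 FPKM before birth, against 1.66, 4.54 and 4.09 FPKM in the neonatal lungs. Its log2 difference of 1.61 just missed the threshold (limma adjusted p = 0.0538), and it passed without Neonatal1 (0.0449) and when only mRNAs above 1 FPKM in 3 or more samples were kept (0.0450).

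CYP26B1, which oxidises retinoic acid to inactive products, was the only one of the CYP26 genes that could be matched to a row. It rose from 2.19, 1.68 and 2.09 FPKM to 7.30, 6.54 and 4.10 FPKM. The groups did not overlap, and the log2 difference was 1.20 (SE 0.24, limma adjusted p = 0.0290). Leaving out any sample other than Neonatal3 raised the adjusted p to between 0.0650 and 0.134, with differences between 1.06 and 1.41 over the 6 fits, and with median-of-ratios scaling it was 0.0533. With an equal sum of FPKM the difference was 0.77 and the adjusted p 0.171. Set against the enzymes that make retinoic acid, a ratio chosen after the values had been seen, the ALDH1A sum was 26.4, 30.7 and 18.1 times the level of CYP26B1 in the fetal samples and 9.38, 9.89 and 16.7 times in the neonatal samples. This ratio does not depend on the scaling of a sample. All neonatal ratios were below all fetal ones, but Fetal3 and Neonatal3 differed by less than the SD of either group (6.40 and 4.10).

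**Figure D3:**
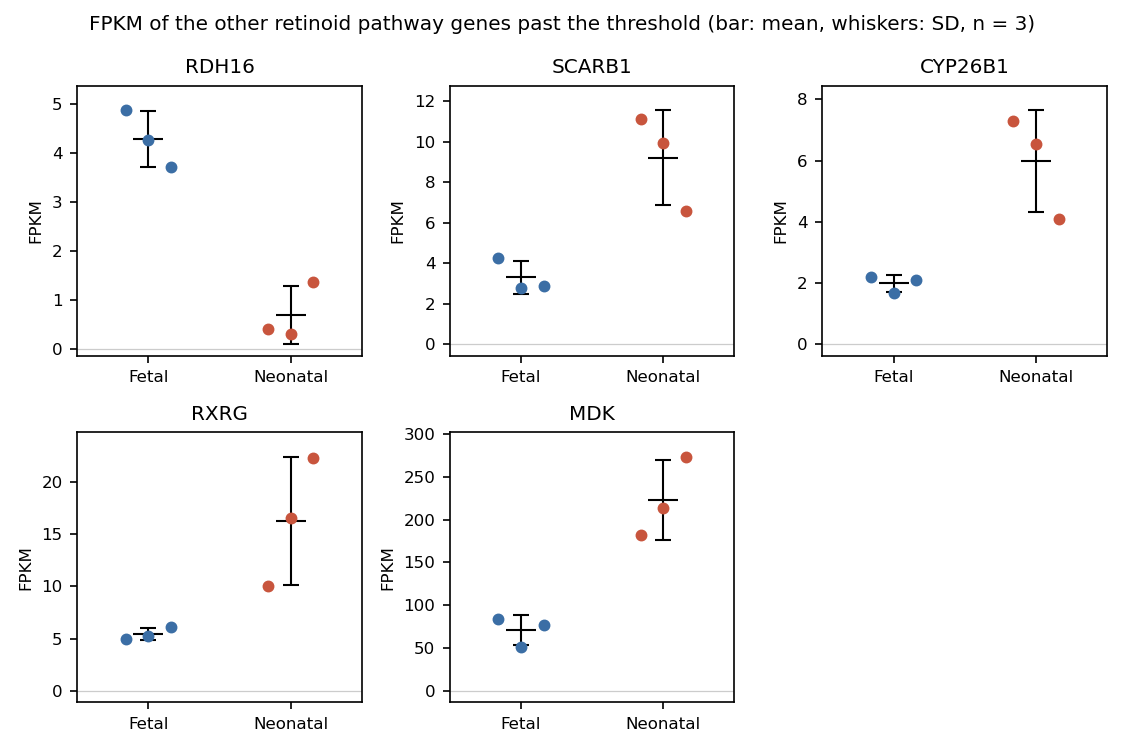
FPKM (vertical axes, linear) of the 5 other retinoid pathway genes past the threshold in the 3 fetal and 3 neonatal samples, with the mean as a bar and the SD as whiskers (n = 3). RDH16 is lower in all neonatal samples, and SCARB1, CYP26B1, RXRG and MDK are higher in all of them.

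Of the 13 other receptors and coregulators, 1 passed the threshold (7.69%, against 6.87% of all mRNAs). RXRG, the gamma form of the receptor that pairs with the RARs, rose from 4.98, 5.21 and 6.11 FPKM to 10.1, 16.6 and 22.3 FPKM (log2 difference 1.37, SE 0.28, limma adjusted p = 0.0332). With an equal sum of FPKM the adjusted p was 0.0598, and without Fetal1, Fetal2, Fetal3, Neonatal2 and Neonatal3 it was 0.118, 0.142, 0.0924, 0.118 and 0.0954. The difference stayed between 1.12 and 1.66 with any 1 sample left out. RXRB, the beta form, named here after its values had been seen, stood at 15.7, 11.9 and 11.9 FPKM before birth and 13.3, 19.4 and 22.5 FPKM after it, with overlap (limma adjusted p = 0.303). Of the sum of RXRB and RXRG, RXRG held 24.1%, 30.4% and 33.9% in the fetal samples and 43.0%, 46.1% and 49.8% in the neonatal samples. The share of RXRG, which does not move with scaling, was therefore higher in each neonatal sample, and RXRA was not part of the sum. PPARD, a fatty acid receptor that also pairs with RXRs, had the next largest difference (0.56, limma adjusted p = 0.0915), with 5.09, 4.95 and 5.51 FPKM before birth and 7.58, 8.28 and 8.53 FPKM after it.

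**Figure D4:**
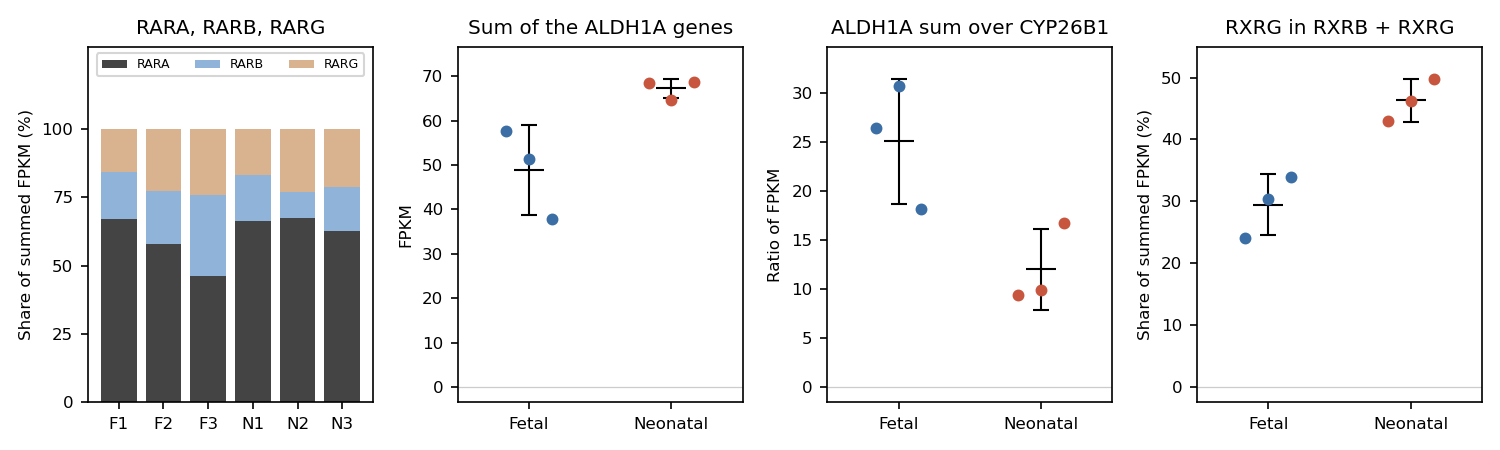
From left to right, the share of RARA, RARB and RARG in their summed FPKM in each sample (F, fetal; N, neonatal), the summed FPKM of the ALDH1A genes, the ratio of that sum to CYP26B1, and the share of RXRG in the sum of RXRB and RXRG, with means as bars and SD as whiskers (n = 3). The ratio to CYP26B1 is lower in all neonatal samples, at 9.38 to 16.7 against 18.1 to 30.7, and the RXRG share is higher in all of them, at 43.0% to 49.8% against 24.1% to 33.9%.

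Of the 18 genes known to respond to retinoic acid, 1 passed the threshold (5.56%, against 6.87% of all mRNAs), and the median difference was 0.32. The groups did not overlap in 4 of the 18 (22.2%), against 30.5% of all mRNAs. MDK, a heparin-binding growth factor first described as induced by retinoic acid, rose from 84.3, 50.9 and 77.1 FPKM to 182, 214 and 274 FPKM. The groups did not meet (log2 difference 1.66, SE 0.27, limma adjusted p = 0.0164), and the adjusted p was 0.0524, 0.0685, 0.0583, 0.0742 and 0.0646 without Fetal1, Fetal2, Fetal3, Neonatal2 and Neonatal3. The difference itself stayed between 1.44 and 1.80 with any 1 sample left out. HOXA2, a homeobox gene, had the next largest difference of this list, at 0.82 (limma adjusted p = 0.0978), with 1.73, 1.13 and 2.58 FPKM before birth and 3.30, 4.65 and 3.75 FPKM after it. The difference was above 0 in 13 of the 18 genes and below 0 in 5, against 8729 and 5850 of all mRNAs. RARB, known as an induced gene too, was not among the 18 and had the difference of -0.29 given above.

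**Figure D5:**
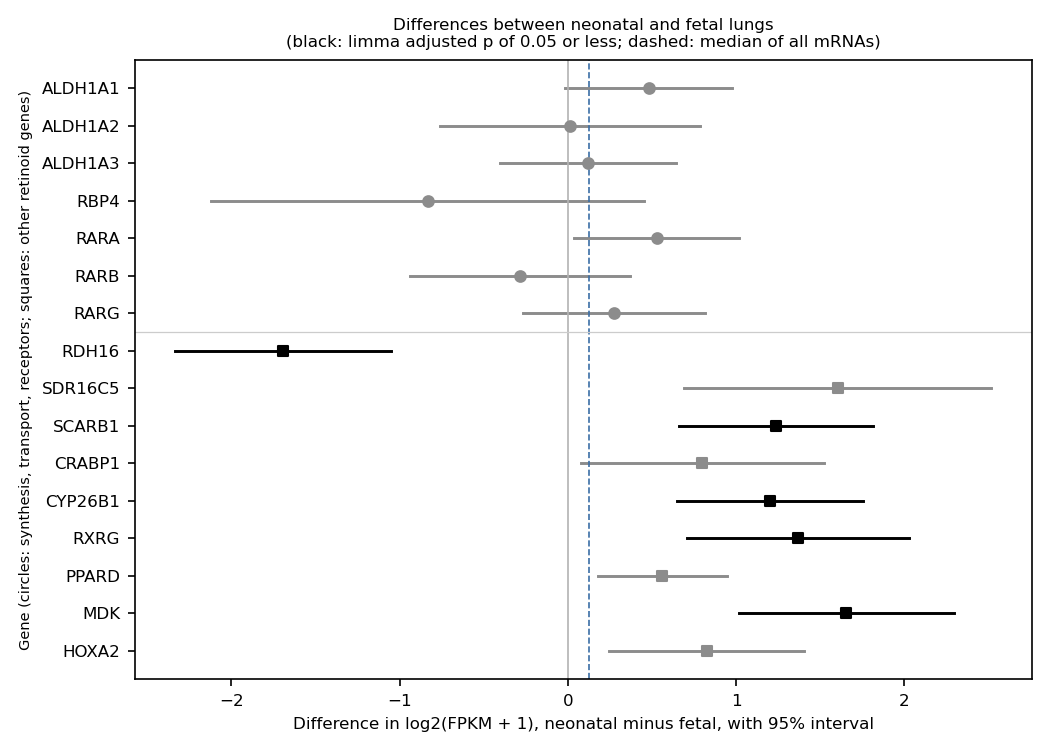
Difference in log2(FPKM + 1), neonatal minus fetal (horizontal axis), with its 95% interval for the 7 genes (circles) and for 9 other retinoid pathway genes (squares), black where the limma adjusted p is 0.05 or less, with the median of all mRNAs as a dashed line. The 7 circles are grey, with intervals that cross the dashed line, while RDH16 lies to the left and SCARB1, CYP26B1, RXRG and MDK to the right of it.

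Markers of several cell types differed between the groups as well, in the values as deposited. Summed over the measured markers of a list, smooth muscle and pericyte genes (7 of 7 listed) went from 364 to 594 FPKM in the fetal samples to 1073 to 1737 FPKM in the neonatal samples. Of these markers 3 (42.9%), ACTA2, TAGLN and CNN1, rose past the threshold in limma, against 6.87% of all mRNAs past it in either direction. The sums of alveolar type II (7 of 8), fibroblast (5 of 8) and endothelial markers (6 of 8) were also higher in every neonatal sample, from 4875 to 5446, 874 to 1108 and 464 to 587 FPKM before birth to 6597 to 11791, 1162 to 1491 and 639 to 871 FPKM after it. SFTPC made up most of the type II sum, with 3171 to 3902 FPKM before birth and 4233 to 8790 FPKM after it. COL3A1 made up most of the fibroblast sum, at 578 to 707 and 815 to 1038 FPKM. No type II or fibroblast marker passed the threshold in limma. NAPSA and DCN had negative differences (-0.24 and -0.17), while the others of these lists were positive. CLDN5, a tight junction protein, accounted for the higher endothelial sum, at 225, 198 and 265 FPKM before birth and 377, 616 and 617 FPKM after it. Of the 6 endothelial markers 4 had a negative difference, and KDR and EMCN were lower in every neonatal sample. With CLDN5, the groups did not overlap in 3 of the 6 (50%), against 30.5% of all mRNAs. The sums of alveolar type I (4 of 8), airway secretory (5 of 7), ciliated (3 of 8), mesothelial (3 of 7), macrophage (6 of 8), lymphocyte (6 of 8) and erythroid markers (3 of 7) overlapped between the groups. All 6 macrophage markers had a higher mean after birth, with a median difference of 0.96, although none of the 6 passed the threshold in limma. CD68 and MRC1 did not overlap (33.3% of the 6), which is near the 30.5% of all mRNAs. In the airway secretory list BPIFB1 rose past the threshold (log2 difference 2.17, limma adjusted p = 0.0149), while SCGB1A1 was lower in every neonatal sample without passing it. This made 1 of 5 (20%) past the threshold and 2 of 5 (40%) without overlap, against 6.87% and 30.5% of all mRNAs. Of the mesothelial markers, WT1 was at or below 0.819 FPKM in all samples. No marker in the table was at 0 in all 6 samples. The part of these cell types in the levels of ALDH1A1, RARA, CYP26B1 and RXRG was not tested.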

How the data were processed

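Lung RNA of 3 fetal and 3 neonatal piglets was sequenced by the authors from strand-specific Ribo-Zero libraries. The deposited mRNA table holds FPKM, which the authors obtained by aligning filtered reads to Sscrofa10.2 in TopHat 2.1.0 and quantifying genes in Cufflinks 2.2.1, and all 14579 rows had FPKM above 0.5 in at least 1 sample. The 6 columns were matched to samples by name, with 0 left over. A reference table named 9478 rows, and the gene names in the study's list of differentially expressed mRNAs named 403 more. The deposited lncRNA table was not used.

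Differences were fitted on log2(FPKM + 1) in limma 3.58.1 under R 4.3.3, allowing the variance to follow the mean, and p-values were adjusted by Benjamini-Hochberg over all rows. The study's own test, Cuffdiff, needs alignments. The fit was also run on simulated data. The changes there were larger than the differences of the members on log2(FPKM + 1), so that run does not bear on them. Shares, ratios and distances were computed in Python 3.11.15 (numpy 2.4.6, pandas 2.3.3), and figures in matplotlib 3.10.9. Alternatives were pseudocounts of 0.5 and 0.1, only mRNAs above 1 FPKM in 3 or more samples, median-of-ratios scaling, quantile normalization, no trend, a replicate block and each sample left out. Scaling to an equal sum of FPKM was added after the values were seen. Named were the members, and of each pathway list the genes past the threshold and the 2 with the largest difference. Members and lists were chosen with earlier results of these data known. 1 gene of the pathway lists is not reported here and was left out of their counts.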

Additional observations from a re-analysis of the deposited data

How the results depend on the processing

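None of the 7 genes passed the threshold under any of the alternatives run, including each sample left out. Their direction held except where it is named here. With the samples scaled to an equal sum of FPKM, the median difference of all mRNAs moved from 0.13 to -0.31, and ALDH1A1, ALDH1A2, ALDH1A3, RARA and RARG turned negative, at -0.10, -0.35, -0.12, -0.039 and -0.26. Relative to that median, 4 of the 7 genes were higher and 3 lower. The difference of ALDH1A2, 0.01, was also negative with pseudocounts of 0.5 and 0.1 (-0.022 and -0.12), after median-of-ratios scaling (-0.10) and quantile normalization (-0.12), and without Fetal3, Neonatal2 or Neonatal3 (-0.05, -0.16 and -0.18). With 1 sample left out, its difference ranged from -0.18 to 0.38. ALDH1A3 had no 3 samples above 1 FPKM and has no value under that filter.

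Of all mRNAs 1001 passed the threshold, and 78.8% of these rose. This share was 66.0% after median-of-ratios scaling, 57.9% after quantile normalization and 28.9% with an equal sum of FPKM. With 1 sample left out the count lay between 196 and 944, and for the other retinoid pathway genes it lay between 0 and 4 against 5 with all samples, and it was 3 after median-of-ratios scaling. With the replicate number as a block the counts were 401 and 1, RDH16. The numbers do not pair the piglets, which came from different sows: the deviations of same-numbered samples from their group means correlated at -0.041, -0.0043 and 0.00047 over genes, and no sample correlated best with its own number. For the shares of the ALDH1A and RAR genes, leaving out 1 of 3 samples cannot move a group mean by 1 SD. The values are given instead. The fetal share of RARA, 57.1%, ran from 52.0% to 62.6%, and that of RARB, 22.2%, from 18.3% to 24.7%. The neonatal share of RARB, 14.2%, ran from 12.8% to 16.5%. ALDH1A1 stayed between 95.6% and 97.3% in both groups. Without read counts per gene, depth sets no stated limit, and the low levels of ALDH1A2, ALDH1A3 and RBP4 are the least certain.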
